A study of Danio rerio with 8 samples.

Results

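Messenger RNA levels of 9 genes of the p53 pathway and of growth arrest were read in fluorescence-sorted endocrine cells of the zebrafish pancreas. The genes were chosen by symbol (mdm2, cdkn1a, ccng1, gadd45aa, gadd45ba, sesn1, sesn3, tp53inp1 and phlda3), and all 9 stood on a single row each among the 31953 zebrafish gene rows of the deposited count table. All fish were 30 days old (30 dpf) and carried the same transgenes, Tg(ins:BB1.0L), which labels cells through the insulin promoter, and TgBAC(sst1.1:memEGFP), which marks cells that express the somatostatin gene sst1.1 with membrane EGFP. The cells fell into 3 sorted groups: sst1.1+ins+ cells positive for both reporters (3 libraries), ins+ cells (2 libraries) and sst1.1+ cells (3 libraries). Growth conditions were labelled normal in all of them, and the groups differ in the labels by the sort alone. The labels do not say how many fish or sorts stand behind a library, so p-values cover variation among the 8 libraries only, and that variation may be technical.

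The p53 pathway is switched on by DNA damage and other stress, mainly at the level of protein stability. Its target genes halt the cell cycle, aid repair, limit growth signalling or promote cell death, and mdm2, which encodes a ubiquitin ligase that shuts the pathway off, is itself a target, which closes a negative feedback loop. Target transcripts are commonly read as a proxy of pathway activity, although most of them also respond to other transcription factors. In mature islet cells, which divide rarely, the pathway is best known from mammals for growth arrest and for survival under metabolic stress.

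Libraries held 16948429 to 30374029 gene counts, and the ins+ libraries were the 2 shallowest. Levels are counts per 1000000 (CPM) on totals scaled by the trimmed mean of M-values (TMM). A gene was called when edgeR's quasi-likelihood F-test, fitted on all 8 libraries and 16418 genes, gave an adjusted p of at most 0.05. The insulin gene ins took 11.1 to 13.1% of gene counts in sst1.1+ins+, 23.8 to 25.8% in ins+ and 0.0642 to 0.125% in sst1.1+. The somatostatin gene sst1.1 took 16.7 to 20.2% in sst1.1+ins+, 4.35 to 5.56% in ins+ and 25.4 to 28.9% in sst1.1+, so its transcript was also present in the ins+ libraries. Of 17 endocrine markers, 16 had counts in every library, and pax6a was at 0 in all of them. Among the 16 was the glucagon gene gcga, so a further hormone transcript was abundant in every group. Its level ran from 16072 to 20202 CPM in sst1.1+ins+, from 8442 to 11425 CPM in ins+ and from 19893 to 40486 CPM in sst1.1+. The part of gcga-expressing cells in the results was not tested. Summed acinar markers ran from 47.3 to 107 CPM in sst1.1+ins+, from 24.8 to 74.3 CPM in ins+ and from 46.2 to 179.5 CPM in sst1.1+, mesenchymal markers ran from 1.51 to 18.7 CPM in sst1.1+ins+, from 2.94 to 9.22 CPM in ins+ and from 2.25 to 96.9 CPM in sst1.1+, and endothelial and erythrocyte markers stayed at or below 2.701 CPM. In bulk RNA from sorted cells, a lower level of a transcript may reflect fewer cells that express it or less RNA per cell, and these cannot be told apart.

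Between the single-positive groups, tp53inp1 was higher and gadd45ba was lower in ins+ cells. These were the 2 of 9 genes called for ins+ against sst1.1+, 1 in each direction, while 4.03% of all genes tested were called there (1.61% higher and 2.42% lower). The median log2 fold change of the 9 genes was 0.23, against -0.07 over all genes tested. No gene of the 9 was called for sst1.1+ins+ against sst1.1+ (background 0.207%) or for sst1.1+ins+ against ins+ (background 0.92%) by edgeR. At an unadjusted edgeR p under 0.05, 4 of the 9 passed for ins+ against sst1.1+ (17.6% of all genes tested). For sst1.1+ins+, 3 of the 9 passed in the comparison with sst1.1+ (7.9%) and 0 of the 9 in the comparison with ins+ (12.1%). DESeq2 called 2 of the 9 against sst1.1+ (272 of all genes) and 0 against ins+ (792 of all genes). In both, limma-voom called 0 of the 9 (99 and 177 of all genes). The median log2 fold change of the 9 genes was 0.37 against sst1.1+, where that of all genes was 0.00087, and -0.10 against ins+, where that of all genes was 0.08. The medians of the 9 count phlda3, which had reads in only 2 libraries. In both comparisons with sst1.1+, phlda3 had the highest fitted value of the 9, which raises those medians. Both comparisons with sst1.1+ share its 3 libraries, so their values are not independent of each other. Between ins+ and sst1.1+ the libraries did not overlap for 5 of the 9 genes (33.3% of all genes tested), with ins+ above for 3 (15.7%) and below for 2 (17.7%). Between sst1.1+ins+ and sst1.1+ they did not overlap for 2 of the 9 (14.7%), tp53inp1 above (7.38%) and gadd45ba below (7.27%). Between sst1.1+ins+ and ins+ they overlapped for all 9, where 30.3% of all genes tested did not (16.4% above and 14% below).

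**Figure D1:**
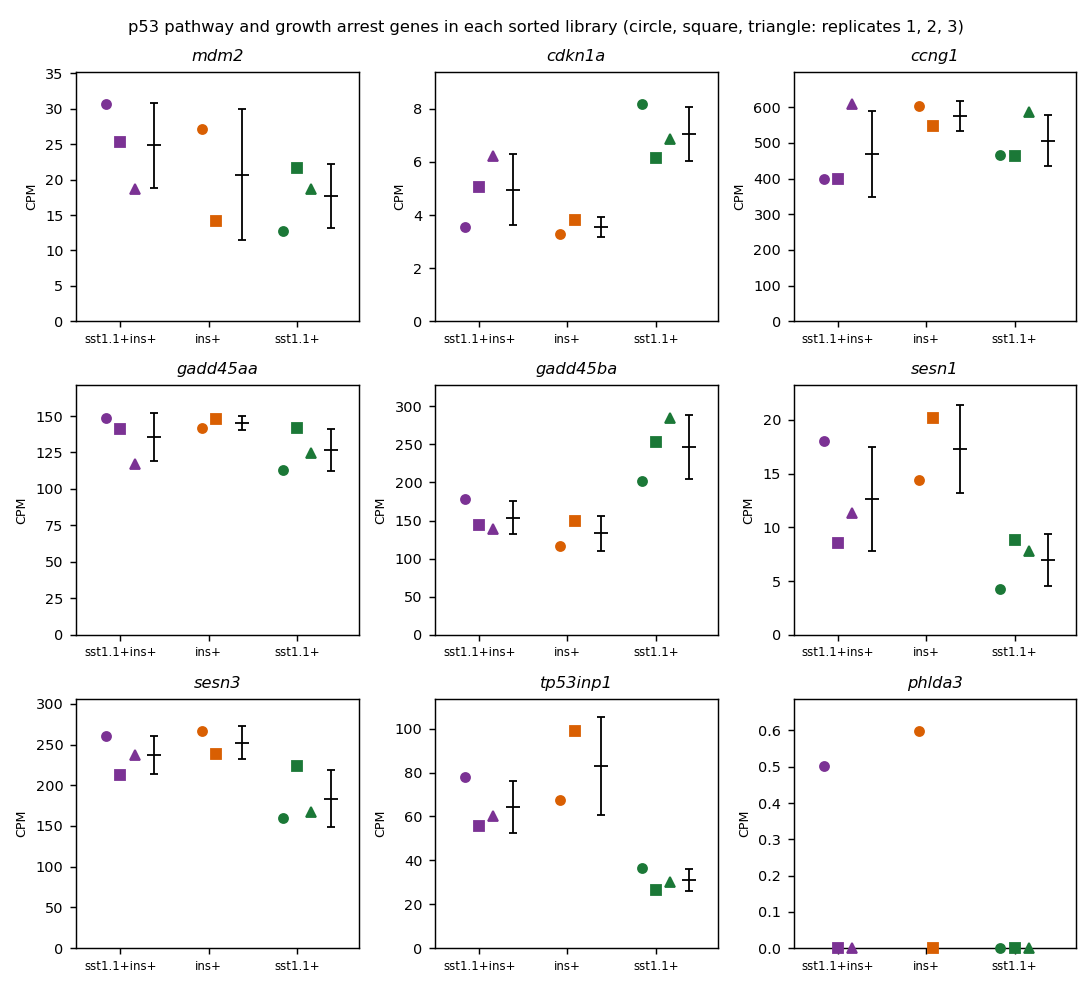
Level of each of the 9 genes in CPM (y axis, from 0) in the 3 sorted groups (x axis), with a point for each library and, beside it, the group mean and SD as a bar (none for phlda3, which had counts in only 2 libraries). The 2 ins+ libraries lie above the 3 sst1.1+ libraries for tp53inp1, sesn1 and sesn3 and below them for gadd45ba and cdkn1a.

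In the feedback loop itself, mdm2 and mdm4 were called in none of the 3 comparisons. The gene mdm2 (ENSDARG00000033443), which encodes the ubiquitin ligase of the loop, stood at 30.6, 25.2 and 18.6 CPM in sst1.1+ins+, at 27.2 and 14.2 CPM in ins+ and at 12.7, 21.6 and 18.7 CPM in sst1.1+. The libraries of every pair of groups overlapped, and the 2 ins+ libraries lay far apart. The fitted log2 fold change was 0.23 ± 0.39 SE for ins+ against sst1.1+ (adjusted p = 0.835) and 0.49 ± 0.35 SE for sst1.1+ins+ against sst1.1+ (adjusted p = 0.9). Its 95% intervals, from -0.63 to 1.08 and from -0.28 to 1.26, leave room for a 2.12-fold and a 2.39-fold higher level. The first of these had the opposite sign without ins+ replicate 1, at -0.32. Against ins+, the log2 fold change of sst1.1+ins+ was 0.26 ± 0.40 SE, and -0.12 without ins+ replicate 2. The related gene mdm4, whose product also restrains the pathway, averaged 24.9 ± 5.79 CPM in sst1.1+ins+ (SD, n = 3), 17.5 ± 3.58 in ins+ (n = 2), compared with 23.8 ± 6.87 in sst1.1+ (n = 3).

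The gene with the smallest p of the 9 in both comparisons with sst1.1+ was tp53inp1 (ENSDARG00000028017), a p53 pathway target whose product, studied mostly in mammals, promotes autophagy. It stood at 77.8, 55.5 and 60.0 CPM in sst1.1+ins+, at 67.3 and 98.9 CPM in ins+ and at 36.4, 26.5 and 30.0 CPM in sst1.1+. Every sst1.1+ins+ and every ins+ library lay above every sst1.1+ library, and the insulin-expressing groups overlapped each other. In ins+ cells tp53inp1 rose 2.68-fold relative to sst1.1+ cells (log2 fold change 1.42 ± 0.25 SE, edgeR adjusted p = 0.00777, higher in both ins+ libraries than in all sst1.1+ libraries). Without ins+ replicate 2 the log2 fold change was 1.11 and its adjusted p 0.0945, the only 1 of 18 alternative settings that lost the call. In sst1.1+ins+ cells the log2 fold change relative to sst1.1+ was 1.06 ± 0.23 SE, with an unadjusted edgeR p of 0.000675 and an adjusted p of 0.127. DESeq2 and edgeR without a low-count filter gave adjusted p = 0.00464 and adjusted p = 0.00469 for this comparison. Between sst1.1+ins+ and ins+ the log2 fold change was -0.37 (95% interval -0.92 to 0.18, adjusted p = 0.595). Its paralog tp53inp2 had few counts and averaged 4.82 ± 4.40 CPM in sst1.1+ins+, 5.01 ± 3.92 in ins+ and 3.27 ± 1.27 in sst1.1+. The log2 fold change of tp53inp2 for ins+ against sst1.1+ was 0.62 ± 0.93 SE, and -0.55 without ins+ replicate 1.

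Neither of the 2 classical cell cycle genes of the set was called. The gene cdkn1a (ENSDARG00000076554) encodes p21, the cyclin-dependent kinase inhibitor through which the pathway arrests cells before DNA replication. It had few reads, 92, 119 and 151 in sst1.1+ins+, 66 and 65 in ins+, against 243, 151 and 155 in sst1.1+. Its levels were 3.56, 5.06 and 6.23 CPM in sst1.1+ins+, 3.29 and 3.82 CPM in ins+, against 8.16, 6.14 and 6.85 CPM in sst1.1+. Both ins+ libraries lay below all sst1.1+ libraries, while sst1.1+ins+ overlapped both groups. The log2 fold change of ins+ against sst1.1+ was -0.99 ± 0.66 SE (95% interval -2.42 to 0.45, adjusted p = 0.468). A 2-fold lower level of cdkn1a lay inside this interval, as did no difference. The gene ccng1 (ENSDARG00000076667) encodes cyclin G1, an atypical cyclin induced by the pathway that acts on Mdm2 and on growth arrest. It stood at 398, 399 and 607 CPM in sst1.1+ins+, at 604 and 546 CPM in ins+ and at 466, 462 and 587 CPM in sst1.1+. All groups overlapped, with replicate 3 the highest in both sst1.1+ins+ and sst1.1+. Its log2 fold change was 0.19 ± 0.20 SE for ins+ against sst1.1+ (95% interval -0.25 to 0.63). For sst1.1+ins+ against sst1.1+ it was -0.11 ± 0.18 SE (-0.51 to 0.29), and 0.012 without sst1.1+ replicate 3. For sst1.1+ins+ against ins+ it was -0.30 ± 0.20 SE (-0.74 to 0.14).

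**Figure D2:**
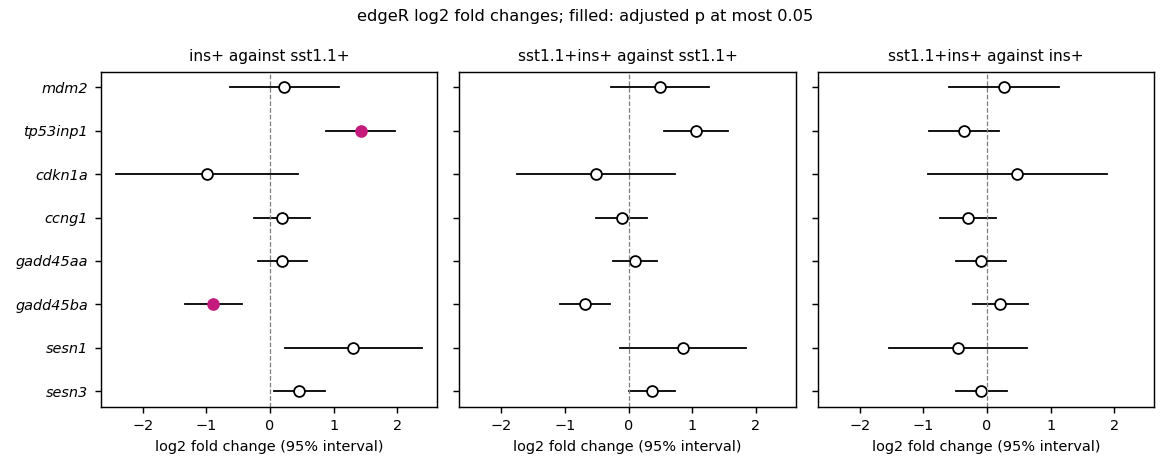
Log2 fold change (x axis) with its 95% interval for each of 8 genes (rows) in the 3 comparisons (panels, first-named group over second), from the edgeR fit; filled points passed an adjusted p of 0.05. In the left panel tp53inp1 at 1.42 and gadd45ba at -0.89 are filled, and in the middle panel they stand at 1.06 and -0.68, unfilled.

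The growth arrest and DNA damage (Gadd45) genes encode small stress sensors that bind p21 and kinases of the stress-activated MAP kinase pathway. The gene gadd45aa (ENSDARG00000043581), a co-ortholog of the p53 pathway target GADD45A of mammals, was nearly level: 149, 141 and 117 CPM in sst1.1+ins+, 142 and 148 CPM in ins+ and 113, 142 and 124 CPM in sst1.1+. These libraries overlapped, and the 95% interval of its log2 fold change reached at most 0.58 for ins+ against sst1.1+ and 0.45 for sst1.1+ins+ against sst1.1+. Differences of 2-fold therefore lay outside both intervals. By contrast, gadd45ba (ENSDARG00000027744), named for GADD45B, which in mammals is induced by NF-kappa B and TGF-beta signalling as well as by stress, stood at 179, 144 and 139 CPM in sst1.1+ins+, at 117 and 149 CPM in ins+ and at 201, 253 and 285 CPM in sst1.1+. Every sst1.1+ library lay above every other library. In ins+ cells gadd45ba fell 1.85-fold relative to sst1.1+ cells (log2 fold change -0.89 ± 0.20 SE, edgeR adjusted p = 0.0328).

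The gadd45ba call was close to the threshold. It was lost in 8 of 18 alternative settings, with adjusted p from 0.0519 to 0.185: library totals in place of TMM scaling, a replicate block (0.0608), a fit of only the 2 groups, and the omission of sst1.1+ins+ replicate 3, sst1.1+ replicate 2, sst1.1+ replicate 3, ins+ replicate 1 or ins+ replicate 2. The log2 fold change kept its sign in all 18, between -1.08 and -0.73. For sst1.1+ins+ against sst1.1+ it was -0.68 ± 0.18 SE (unadjusted p = 0.00266, adjusted p = 0.234), and DESeq2 gave adjusted p = 0.0164. A count ratio within each library does not depend on scaling. There were 1.2003, 1.03 and 1.18 gadd45ba reads per gadd45aa read in sst1.1+ins+, 0.826 and 1.01 in ins+, against 1.78, 1.78 and 2.29 in sst1.1+. The ratio was thus highest in all 3 sst1.1+ libraries. Since both genes were chosen with these data known, it is given as a description.

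The other Gadd45 genes, named here for their family after their values were seen, had their highest library outside sst1.1+ where they had counts. The second GADD45A co-ortholog gadd45ab averaged 37.4 ± 2.95 CPM in sst1.1+ins+ (SD, n = 3), 45.7 ± 2.42 in ins+ (n = 2), compared with 25.5 ± 4.15 in sst1.1+ (n = 3). No pair of groups overlapped for gadd45ab, with a log2 fold change of 0.84 ± 0.24 SE for ins+ against sst1.1+ (edgeR adjusted p = 0.0857, DESeq2 adjusted p = 0.0323). The gene gadd45bb averaged 41.4 ± 10.2 CPM in sst1.1+ins+ and 49.0 ± 0.318 CPM in ins+, against 36.5 ± 8.23 CPM in sst1.1+. The gene gadd45ga averaged 76.0 ± 12.1 CPM in sst1.1+ins+ and 114 ± 24.1 CPM in ins+, against 77.9 ± 10.1 CPM in sst1.1+. Both lay higher in the ins+ libraries than in all sst1.1+ libraries without passing the test (adjusted p = 0.462 for gadd45bb and adjusted p = 0.212 for gadd45ga). No count was seen for gadd45gb.1 in any library, which allows a level of up to 0.101 to 0.176 CPM per library (3 counts, counting error only).

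**Figure D3:**
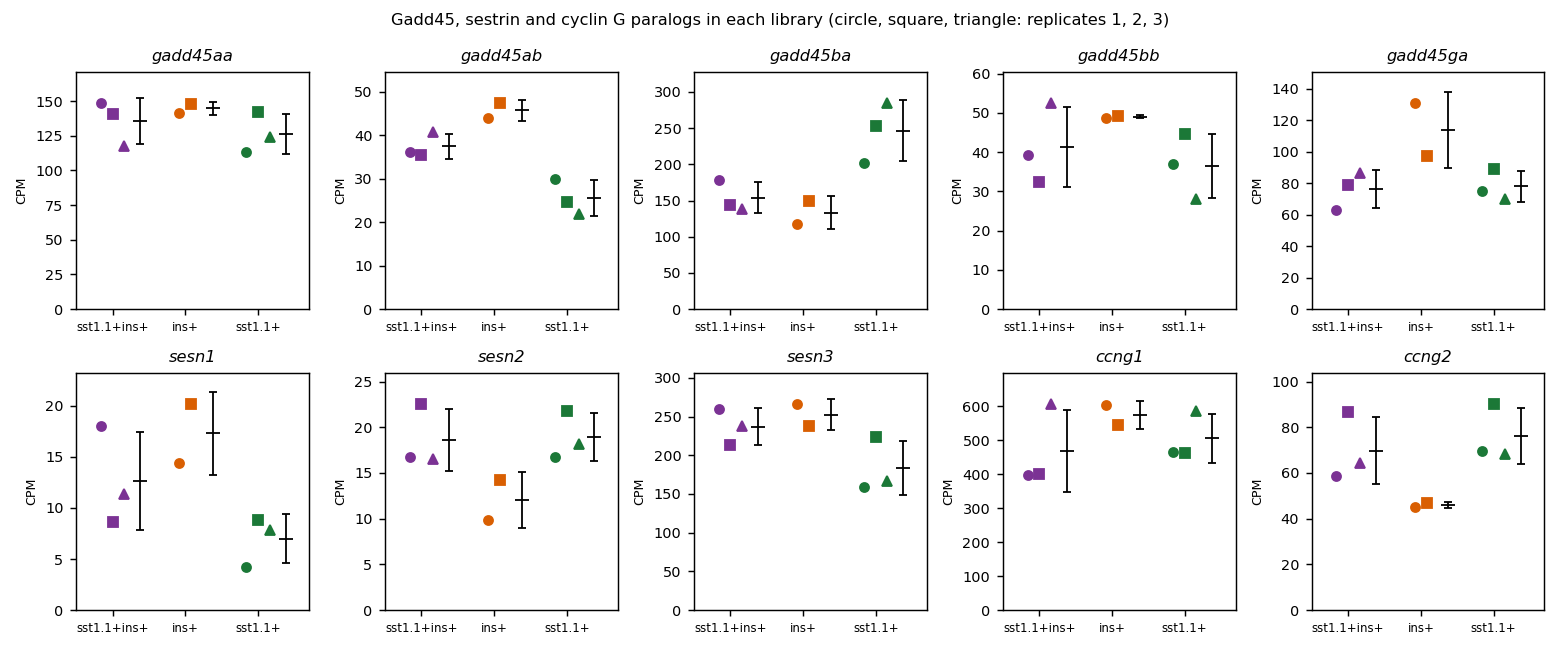
Levels in CPM (y axis, from 0) of 5 Gadd45 genes, 3 sestrins and 2 cyclins G in the 3 sorted groups (x axis), a point for each library, with mean and SD beside it. Among the Gadd45 genes gadd45ba alone has its highest libraries in sst1.1+, at 201 to 285 CPM, and sesn2 and ccng2 have their lowest libraries in ins+, opposite to sesn1 and sesn3.

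Sestrins restrain the growth kinase complex mTORC1 under stress and support antioxidant defence. SESN1 is a p53 pathway target in mammals, whereas SESN3 is better known there as a target of FoxO factors. The gene sesn1 (ENSDARG00000020693) stood at 17.998, 8.58 and 11.3 CPM in sst1.1+ins+, at 14.4 and 20.2 CPM in ins+ and at 4.27, 8.86 and 7.82 CPM in sst1.1+. Both ins+ libraries lay above all sst1.1+ libraries, and sst1.1+ins+ overlapped both groups. The log2 fold change of sesn1 for ins+ against sst1.1+ was 1.31 ± 0.49 SE (95% interval 0.23 to 2.39, adjusted p = 0.19). For sst1.1+ins+ against sst1.1+ it was 0.86 ± 0.45 SE (adjusted p = 0.71).

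The gene sesn3 (ENSDARG00000015822) stood at 260.2, 213 and 238 CPM in sst1.1+ins+, at 267 and 238 CPM in ins+ and at 159, 224 and 167 CPM in sst1.1+. Both ins+ libraries lay above all sst1.1+ libraries, and only sst1.1+ replicate 2 reached into the range of the sst1.1+ins+ libraries. The log2 fold change of sesn3 was 0.46 ± 0.18 SE for ins+ against sst1.1+ (adjusted p = 0.215) and 0.37 ± 0.16 SE for sst1.1+ins+ against sst1.1+ (adjusted p = 0.629). The third sestrin, sesn2, a stress-induced gene of the same family, averaged 18.6 ± 3.43 CPM in sst1.1+ins+, 12.04 ± 3.07 in ins+ and 18.9 ± 2.60 in sst1.1+. Its ins+ libraries lay below all others (log2 fold change -0.65 ± 0.37 SE against sst1.1+, adjusted p = 0.387), opposite in sign to sesn1 and sesn3. In the same way ccng2, a relative of ccng1 that FoxO factors induce in mammals, averaged 69.8 ± 14.8 CPM in sst1.1+ins+, 46.1 ± 1.31 in ins+ and 76.2 ± 12.2 in sst1.1+ (log2 fold change -0.73 ± 0.24 SE for ins+ against sst1.1+, edgeR adjusted p = 0.124, DESeq2 adjusted p = 0.047).

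The gene phlda3 (ENSDARG00000037804) encodes a small pleckstrin-homology protein that in mammals blocks membrane recruitment of Akt and is a p53 pathway target known for restraining islet cell growth. It had 13, 0 and 0 reads in sst1.1+ins+, 12 and 0 reads in ins+ and 0 reads in all 3 sst1.1+ libraries. Both groups with reads rested on a single library, so no fold is given. A count of 0 allows up to 0.101 to 0.133 CPM in the sst1.1+ libraries. The expression filter passed phlda3 through those 2 libraries alone, and it was called in no comparison. The related gene phlda2, which also encodes a pleckstrin-homology protein, averaged 17.2 ± 3.31 CPM in sst1.1+ins+, 2.97 ± 2.29 in ins+ and 34.9 ± 11.9 in sst1.1+. In ins+ cells phlda2 was 11.7-fold lower than in sst1.1+ cells (log2 fold change -3.54 ± 0.57 SE, edgeR adjusted p = 0.00471), a call that limma-voom did not give (adjusted p = 0.0706). A further gene of this family, phlda1, had few reads and the opposite sign. It averaged 0.996 ± 0.835 CPM in sst1.1+ins+, 3.55 ± 0.295 in ins+ and 0.615 ± 0.228 in sst1.1+. Its log2 fold change for ins+ against sst1.1+ was 2.52 ± 1.52 SE (edgeR adjusted p = 0.422).

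Across groups, the sst1.1+ins+ mean lay between the ins+ and sst1.1+ means for 6 of the 8 genes with counts in every library (75%): cdkn1a, gadd45aa, gadd45ba, sesn1, sesn3 and tp53inp1. Of all 16418 genes tested, 46.7% had such an intermediate mean, a share that also covers genes without counts in some libraries. Within sst1.1+ins+, replicate 1 had the highest level of 6 of the 8 genes (mdm2, gadd45aa, gadd45ba, sesn1, sesn3 and tp53inp1) and the lowest of cdkn1a and ccng1. It was the highest of the 3 libraries for 33.7% of all genes tested. There were 5.05, 1.70 and 1.82 sesn1 reads per cdkn1a read in sst1.1+ins+, 4.38 and 5.29 in ins+, against 0.523, 1.44 and 1.14 in sst1.1+. The sst1.1+ libraries lay below all others by this ratio, which was formed after the values were seen.

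Of the 85 further pathway genes tested, 5 were called for ins+ against sst1.1+, where 4.03% of all genes tested were. Of 112 listed genes other than the 9, 95 rows were found and 85 could be tested. For ins+ against sst1.1+ 1 was called higher and 4 lower (background 1.61% and 2.42%). At an unadjusted edgeR p under 0.05, 21 of the 85 passed there, where 17.6% of all genes tested did. The median log2 fold change of the 85 was -0.16 against -0.07 over all genes. For sst1.1+ins+ against sst1.1+ 0 were called by edgeR (background 0.207%), 2 by DESeq2 (272 of all genes) and 1 by limma-voom (99 of all genes). There 7 of the 85 passed an unadjusted edgeR p under 0.05, where 7.9% of all genes tested did. For sst1.1+ins+ against ins+ 1 was called higher by edgeR (background for higher calls 0.755%). There 17 of the 85 passed an unadjusted edgeR p under 0.05, where 12.1% of all genes tested did. The list of pathway regulators and their relatives gave no call in 13 tested genes in any comparison by edgeR, DESeq2 or limma-voom. Of all genes tested, edgeR called 4.03% for ins+ against sst1.1+, 0.207% for sst1.1+ins+ against sst1.1+ and 0.92% for sst1.1+ins+ against ins+. With shares this low, no call in 13 genes does not show that they were unchanged. At an unadjusted edgeR p under 0.05, 1 of the 13 passed for sst1.1+ins+ against ins+ (12.1% of all genes tested). For ins+ against sst1.1+ (17.6%) and sst1.1+ins+ against sst1.1+ (7.9%) 0 passed.

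Among 12 tested genes of damage sensing, prkdc, which encodes the catalytic subunit of the DNA-dependent protein kinase, was the single edgeR call, for ins+ against sst1.1+. Of all genes tested, 4.03% were called there. At an unadjusted edgeR p under 0.05, 2 of the 12 passed there (17.6% of all genes tested). DESeq2 called 1 of the 12 higher and 1 lower in that comparison (643 and 1035 of all genes). DESeq2 and limma-voom each called 1 lower for sst1.1+ins+ against ins+ (218 and 108 of all genes called lower). The gene prkdc averaged 33.9 ± 6.17 CPM in sst1.1+ins+, 81.2 ± 19.6 in ins+ and 17.0 ± 7.46 in sst1.1+. In ins+ cells prkdc was 4.79-fold higher than in sst1.1+ cells (edgeR adjusted p = 0.00322), and the groups did not overlap in any pair. Among 33 tested target and arrest genes, plk2a and phlda2 were the edgeR calls, both lower in ins+ than in sst1.1+. At an unadjusted edgeR p under 0.05, 11 of the 33 passed there (17.6% of all genes tested). DESeq2 called 2 of the 33 higher and 7 lower (643 and 1035 of all genes), and limma-voom 1 higher and 1 lower (353 and 262). For sst1.1+ins+, 4 of the 33 passed the unadjusted edgeR p against sst1.1+ (7.9% of all genes tested) and 9 against ins+ (12.1%). The kinase gene plk2a, a stress-induced regulator of the cell cycle, averaged 15.06 ± 4.64 CPM in sst1.1+ins+, 3.19 ± 1.77 in ins+ and 23.8 ± 8.59 in sst1.1+ (7.44-fold lower in ins+ than in sst1.1+, edgeR adjusted p = 0.011). The plk2a call was lost with limma-voom (adjusted p = 0.0979) and without ins+ replicate 2 (adjusted p = 0.0781).

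The 10 tested repair genes gave no edgeR call. At an unadjusted edgeR p under 0.05, 2, 1 and 1 passed in the 3 comparisons (17.6%, 7.9% and 12.1% of all genes tested). DESeq2 called 1 for ins+ against sst1.1+ (1678 of all genes) and limma-voom 0 (615 of all genes). Among 17 tested genes of apoptosis, the 2 called by edgeR were the survival genes mcl1a and mcl1b, homologs of the anti-apoptotic MCL1. For ins+ against sst1.1+, 6 of the 17 passed an unadjusted edgeR p under 0.05 (17.6% of all genes tested). DESeq2 called 5 lower there (1035 of all genes) and limma-voom 2 (262 of all genes). For sst1.1+ins+ against ins+, DESeq2 called 3 higher (574 of all genes). There 5 of the 17 passed an unadjusted edgeR p under 0.05 (12.1% of all genes tested), and 1 for sst1.1+ins+ against sst1.1+ (7.9%). The gene mcl1a averaged 1801 ± 120 CPM in sst1.1+ins+, 303 ± 42.3 in ins+ and 2794 ± 343 in sst1.1+, 9.21-fold lower in ins+ than in sst1.1+ (adjusted p = 1.36e-06) and 5.93-fold higher in sst1.1+ins+ than in ins+ (adjusted p = 3.24e-05). The gene mcl1b was 2.09-fold lower in ins+ than in sst1.1+ (adjusted p = 0.0226), a call lost without sst1.1+ replicate 1, sst1.1+ replicate 2 or ins+ replicate 1 (adjusted p = 0.07, adjusted p = 0.0523 and adjusted p = 0.146).

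None of 30 tested cell cycle genes was called in any comparison by edgeR, DESeq2 or limma-voom, and at an unadjusted p under 0.05 by edgeR 0 passed for ins+ against sst1.1+ (17.6% of all genes tested), 2 for sst1.1+ins+ against sst1.1+ (7.9%) and 3 for sst1.1+ins+ against ins+ (12.1%). Their summed level ran from 624 to 1134 CPM in sst1.1+ins+, from 369 to 1115 CPM in ins+ and from 392 to 636 CPM in sst1.1+. Their median log2 fold change was 0.50 for ins+ against sst1.1+, 0.46 for sst1.1+ins+ against sst1.1+ and 0.10 for sst1.1+ins+ against ins+. Over all genes tested it was -0.07, 0.00087 and 0.08. The log2 fold change was positive for 22, 25 and 17 of the 30, and for 7711, 8215 and 8840 of all 16418 genes tested. The tubulin regulator stmn1a stood at 180, 272 and 353 CPM in sst1.1+ins+, against 148, 140 and 65.3 CPM in sst1.1+ (adjusted p = 0.381). These stmn1a libraries did not overlap. The gene top2a, which encodes a topoisomerase of dividing cells, stood at 138 and 12.04 CPM in the 2 ins+ libraries, against 37.0, 33.2 and 10.2 CPM in sst1.1+ (adjusted p = 0.324). The thymidine kinase gene tk1 and the replication helicase gene mcm3 were 2.33-fold and 2.45-fold higher in sst1.1+ins+ than in sst1.1+ (edgeR adjusted p = 0.625 and 0.685). The genes ccne1, cdk2 and bub1, of the G1/S transition and the spindle checkpoint, were 2.10-fold, 1.75-fold and 9.18-fold higher in sst1.1+ins+ than in ins+. Their edgeR adjusted p was 0.364, 0.354 and 0.379, and bub1 had only 12 and 4 reads in ins+.

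Immediate early and heat shock genes respond quickly to stress and to cell handling. Of 24 tested genes of this list, 16 were called lower and 0 higher in ins+ than in sst1.1+ (background for lower calls 2.42%), the direction of gadd45ba and mcl1a, 2 were lower in sst1.1+ins+ than in sst1.1+ (background for lower calls 0.0305%) and 11 were higher in sst1.1+ins+ than in ins+ (background for higher calls 0.755%). Their summed level ran from 13142 to 15680 CPM in sst1.1+ins+, from 4744 to 4968 CPM in ins+ and from 22070 to 24449 CPM in sst1.1+. For ins+ against sst1.1+ the genes with the smallest p were the chaperone hsp90aa1.2, the co-chaperone bag3 and the stress transcription factor atf3 (6.06-fold, 30.6-fold and 19.2-fold lower in ins+ than in sst1.1+). For sst1.1+ins+ against sst1.1+ they were hsp90aa1.2 (1.79-fold lower, adjusted p = 0.00422), atf3 (2.08-fold lower, adjusted p = 0.0351) and the chaperone hsp70.3 (adjusted p = 0.0583). The atf3 call was lost with library totals and without any 1 of the 6 libraries of these groups (adjusted p 0.0669 to 0.216). Within sst1.1+, replicate 1 had the highest summed level and the lowest gadd45ba level. Within sst1.1+ins+, replicate 1 was the highest in both, and within ins+, replicate 2 was the higher in both. Summed ductal markers were also lowest in ins+, at 564 to 746 CPM in sst1.1+ins+, 331 to 395 CPM in ins+ and 687 to 951 CPM in sst1.1+ (10 to 11, 8 to 10 and 8 to 10 of 12 genes detected), with vtcn1 at 0 in every library and cftr at 0 in all ins+ and sst1.1+ libraries. Over single libraries, the ductal sum had the order of the immediate early and heat shock sum within sst1.1+ins+. It had the opposite order within ins+ and within sst1.1+. Immune markers summed to 58.3 to 130 CPM in sst1.1+ins+, 79.5 to 98.3 CPM in ins+ and 202 to 318 CPM in sst1.1+ (5, 4 to 5 and 3 to 7 of 10 genes detected), with lcp1 at 0 in all libraries and ptprc below 1 CPM. Most of this sum came from cd74a and cd74b, at means of 27.5 and 62.1 CPM in sst1.1+ins+. Their means were 18.7 and 69.7 CPM in ins+ and 109 and 148 CPM in sst1.1+. Every other immune marker stayed at or below 4.683 CPM in each library. Of 11 ductal genes tested, krt8, epcam and clu were called lower in ins+ than in sst1.1+ (background for lower calls 2.42%). Of 5 immune genes tested, cd74a was. Among the 11 ductal genes, 3 had a positive and 7 a negative log2 fold change there. One of the positive ones, hnf1ba, averaged 57.7 CPM in ins+ and 50.4 CPM in sst1.1+. All 5 immune genes had a negative log2 fold change. So did all 7 mesenchymal and 11 of 14 acinar genes tested (8638 of all 16418 genes). EdgeR called no mesenchymal or acinar gene there, and DESeq2 called 1 and 2 lower (1035 of all genes). Mesenchymal markers summed to 2.25, 35.0 and 96.9 CPM in sst1.1+ replicates 1, 2 and 3. This was the order of gadd45ba there, and likewise within ins+. Within sst1.1+ins+, replicate 1 had the lowest sum and the highest gadd45ba level. The part of these lists in the results was not tested.

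**Figure D4:**
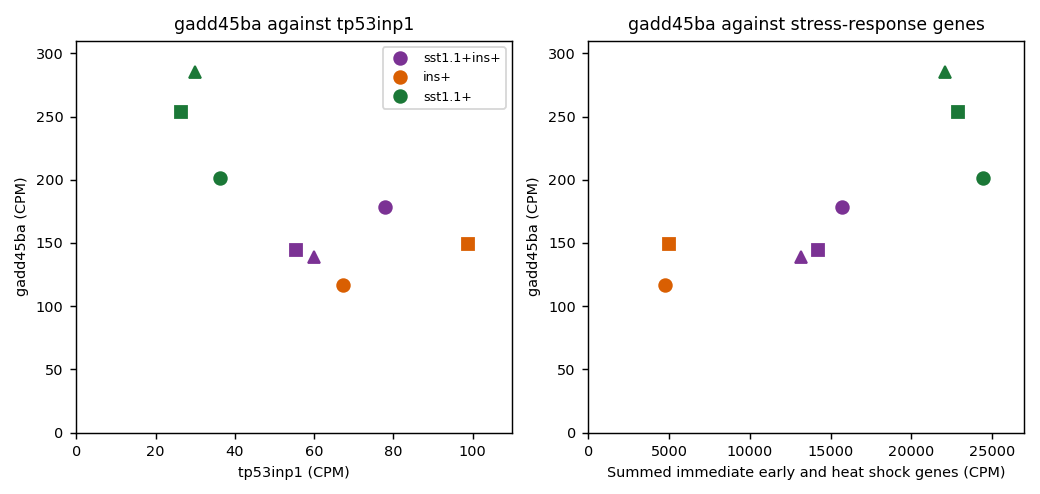
Level of gadd45ba (y axis, CPM, from 0) against that of tp53inp1 (left, CPM) and against the summed level of 25 immediate early and heat shock genes (right, CPM), a point for each library, with circles, squares and triangles for replicates 1, 2 and 3. The sst1.1+ libraries lie apart at 201 to 285 CPM of gadd45ba and 26.5 to 36.4 CPM of tp53inp1, and on the right the 3 groups form separate columns.

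The 2 called genes were also set against each other within libraries. There were 0.436, 0.384 and 0.433 tp53inp1 reads per gadd45ba read in sst1.1+ins+, 0.575 and 0.663 in ins+, against 0.181, 0.104 and 0.105 in sst1.1+. All 3 groups were apart by this ratio, with sst1.1+ins+ in the middle. The ratio was formed after both calls were known and carries no test.

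A search for genes of like pattern covered 3656 named genes with a mean of at least 20 CPM. It left out clone, locus and identifier codes and any symbol ending in a dot and digits, such as sst1.1 and hsp90aa1.2. Among those searched, the genes whose log2 CPM followed tp53inp1 most closely over the 8 libraries were vegfab (Pearson r = 0.964), a vascular endothelial growth factor gene, ttpa (r = 0.963), which encodes a vitamin E transfer protein, and klf11b (r = 0.961), a Krüppel-like factor gene. In ins+ cells vegfab averaged 382 ± 36.5 CPM, ttpa 134 ± 19.3 CPM and klf11b 131 ± 32.0 CPM, against 157 ± 19.0, 12.4 ± 5.27 and 53.6 ± 6.69 CPM in sst1.1+, and all 3 were called higher (edgeR adjusted p = 0.00111, 0.000162 and 0.00517). For gadd45ba they were loxl2a (r = 0.984), a lysyl oxidase gene of the extracellular matrix, atp1b1a (r = 0.953), a sodium pump subunit gene, and tenm3 (r = 0.946), a teneurin adhesion gene. In ins+ cells loxl2a averaged 25.5 ± 9.08 CPM, atp1b1a 181 ± 24.8 CPM and tenm3 26.6 ± 5.09 CPM, against 126 ± 51.3, 315 ± 32.0 and 53.4 ± 10.7 CPM in sst1.1+ (edgeR adjusted p = 0.0209, 0.0311 and 0.0952). The main fit did not call tenm3, whereas DESeq2 (adjusted p = 0.0255) and edgeR without a low-count filter (adjusted p = 0.0369) did. The klf11b call was lost without ins+ replicate 2 (adjusted p = 0.0709). That of loxl2a was lost without sst1.1+ replicate 2, ins+ replicate 1 or ins+ replicate 2 (adjusted p 0.0507 to 0.109). That of atp1b1a was lost in 7 of 18 settings, among them the omission of sst1.1+ replicate 2, sst1.1+ replicate 3, ins+ replicate 1 or ins+ replicate 2 (adjusted p up to 0.182). These correlations include the differences between groups and describe the same 8 libraries. The genes were picked by likeness to a called gene in these libraries, so their own calls add no independent evidence.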

How the data were processed

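Raw read counts per gene were deposited by the authors for 8 libraries of Smart-Seq2 cDNA. The tools named in the submitters' processing notes are Trim Galore, HISAT2 and featureCounts, and the build is GRCz11. For versions, strand setting and multiply aligned reads the entry is not given in the sources used here, so reads shared by near-identical paralogs or overlapping genes are uncertain. Of 32046 rows, 92 spike-in rows (0.0145 to 0.0501% of counts) and 1 EGFP row (0.0200 to 0.810%) stayed out of totals and tests. All 9 identifiers were in the names table.

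Tests used edgeR 4.0.16 in R 4.3.3 (default expression filter by group, TMM scaling, 1 mean per group over 8 libraries, 5 residual degrees of freedom, quasi-likelihood F-test, Benjamini-Hochberg adjustment over 16418 genes). SEs were derived from the log2 fold change and F (their quotient, with F under a square root), and 95% intervals use the test's degrees of freedom. DESeq2 1.42.0 and limma 3.58.1 (voom with quality weights) were alternatives, beside other scalings, filters, a replicate block, a fit of 2 groups, thinned depth and each library left out. The edgeR fit was also run on simulated counts with planted changes, and no result given here rests on that run. Log2 CPM for correlations used a prior count of 2. Intervals include variation among libraries, and floors of 3 counts cover counting error only.

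The 9 genes and the lists were chosen with earlier results of these data known. Besides the 9, the rule named mdm4, 1 gene that is not reported here, pathway genes called in any comparison, the 3 smallest p of the cell cycle and stress lists per comparison and, for each called member, the 3 most correlated genes of at least 20 CPM. Other paralogs were named after their values were seen. The labels do not say whether replicate numbers pair the libraries, and the main fit did not pair them. Sequences and coordinates were not used here.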

Additional observations from a re-analysis of the deposited data

How the results depend on the processing

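Of 27 member and comparison pairs, 20 kept direction and side of the threshold under every alternative that could be fitted (18 for most, fewer for phlda3). Genes called for ins+ against sst1.1+ numbered 662, but 1678 with DESeq2, 1276 without a filter, 383 in a fit of only both groups and 364 to 752 with a library left out (lowest without ins+ replicate 2). For sst1.1+ins+ against sst1.1+ 34 became 272 (DESeq2), 99 (limma-voom), 229 (no filter) and 19 to 39 with a library left out (lowest without sst1.1+ins+ replicate 3), and for sst1.1+ins+ against ins+ 151 became 792 (DESeq2), 560 (no filter) and 59 to 192 (lowest without sst1.1+ins+ replicate 1). With limma-voom the balance of calls turned, to 353 higher and 262 lower for ins+ against sst1.1+ (265 and 397 with edgeR), 40 and 59 for sst1.1+ins+ against sst1.1+ (29 and 5) and 69 and 108 for sst1.1+ins+ against ins+ (124 and 27). Members called for ins+ against sst1.1+ were 2, but 1 with library totals, the replicate block or the 2-group fit and 0 to 2 with a library left out, the lowest without ins+ replicate 2. For sst1.1+ins+ against sst1.1+ DESeq2 and no filter each called 2 in place of 0. Further pathway genes called were 17 (DESeq2) and 10 (no filter) in place of 5, 2, 1 and 3 (DESeq2, limma-voom, no filter) in place of 0, and 7, 2, 5, 3 and 2 (DESeq2, limma-voom, no filter, replicate block, thinned libraries) in place of 1, with 4 to 7, 0 and 1 to 3 over left-out libraries. The direction reversed for mdm2 (-0.32 without ins+ replicate 1, range to 0.62, and -0.12 against ins+ without ins+ replicate 2, range to 0.81), for ccng1 (0.012, range from -0.34) and for tp53inp2 (-0.55, range to 1.25). Thinning to the smallest library was added after the data were seen. Where the design left 1 library in a group, it was assumed to vary like the others. Same-numbered libraries correlated at -0.0291 to 0.0125 in their deviations from group means, and differently numbered ones at -0.0393 to 0.0402. Deviations of the 2 ins+ libraries mirror each other, and these values cannot decide whether same-numbered libraries share fish or a sort. The replicate block pairs by number only. It gave 648, 44 and 181 calls and the log2 fold change of gadd45ba as -0.87 (adjusted p = 0.0608). The cause of these changes was not tested. The level of phlda3 rests on 2 libraries with reads.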
